A study of Mus musculus with 44 samples.

Results

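RNA that came down with AUF1 was compared with RNA that came down with control IgG in growing C2C12 cells, on 8 of the 44 bead arrays of the series. The columns of the deposited table named for AUF1 at day 0 gave 4 arrays and those named for IgG at day 0 gave 4, and each AUF1 array was paired with the IgG array that carries the same experiment number in its column name. C2C12 is an established mouse myoblast line, a single line with no genetic change named in the labels, and here it was proliferating in growth medium. Lysates were incubated with beads carrying an antibody against AUF1 or a control IgG, and the recovered RNA was purified after DNase and proteinase K treatment (RNA immunoprecipitation, called pulldown below). Another 5 arrays of the same day are input controls, taken without pulldown; their titles say DNA while their descriptions and molecule field say RNA, and they are treated as RNA here. Input arrays 33 and 36 both carry experiment number 1, so the 5 input arrays are not 5 separate experiments. The labels do not say that the experiment numbers stand for separate cultures, so p-values measure the spread between these arrays, which may be technical.

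AUF1, the product of the gene Hnrnpd, is an RNA-binding protein found as several isoforms and known for binding AU-rich elements, sequence stretches that often lie in the 3′ ends of short-lived mRNAs. Depending on the target, its binding is known to speed mRNA decay, to protect the mRNA or to change its translation, and in muscle it has been studied with regulators of differentiation such as Mef2c. In a pulldown, the IgG arrays measure what beads and an unrelated antibody carry along, and the AUF1 arrays are compared with that background. After normalization the difference between both pulldowns is relative to the other probes of the array. It does not give the amount of RNA recovered. Probes carry only Illumina identifiers in the deposited file. The gene table at hand held 0 of the 25697 identifiers, so no probe is given a gene name or a sequence here, the levels of Hnrnpd, Mef2c and of myoblast markers were not checked, and the results are described by sets of probes and by 4 probes with their values on every array.

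The AUF1 arrays were dimmer than their IgG partners in each experiment. A probe counts as detected where its detection p-value is under 0.05. With AUF1, 38.9%, 28.6%, 38.5% and 40.9% of the probes were detected in experiments 1 to 4, and with IgG 46.3%, 34%, 43.2% and 44.7%. Experiment 2 was the lowest with either antibody, and the groups overlapped. The paired difference was -5.29 percentage points ± 1.55 (SD, n = 4 pairs), and AUF1 was lower in 4 of 4 pairs (exact permutation of signs, two-sided p = 0.13, the smallest that 4 pairs can give, so this test cannot reach 0.05). The mean signal with AUF1 was 198, 119, 225 and 238 intensity units, against 360, 154, 295 and 304 with IgG, so that experiment 1 held the widest gap, with a ratio of 0.549 against 0.762 to 0.784 in the others. The mean paired difference in signal was -83.3 ± 55.1 (SD, n = 4; exact permutation p = 0.13). On the input arrays 45.9% to 47.4% of the probes were detected.

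**Figure D1:**
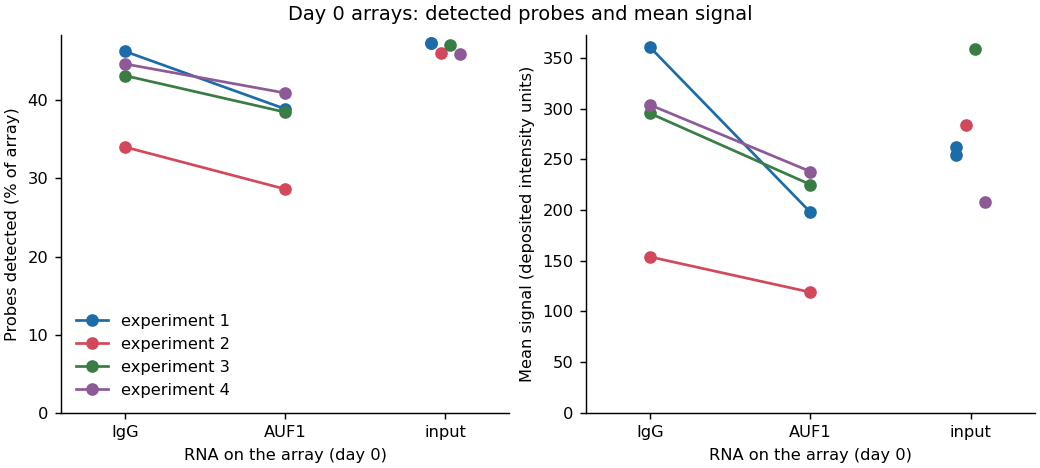
Left, percentage of probes detected; right, mean deposited signal in intensity units, on each day 0 array. Lines join the IgG and AUF1 arrays of 1 experiment and single points are input arrays; every line falls from IgG to AUF1, and both arrays of experiment 2 sit lowest, at 34% and 28.6% detected.

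With the pairs in the model, 1764 of 13812 tested probes differed between AUF1 and IgG (12.8%), and they were divided almost evenly: 896 were higher with AUF1 (6.49%) and 868 lower (6.28%). These are calls at an adjusted p under 0.05 from limma with Benjamini-Hochberg adjustment, on log2 values that quantile normalization had given the same distribution on every array. Higher and lower therefore mean relative to the other probes of the array. The larger changes were mostly downward. Of the called probes, 334 were lower by at least 2-fold and 110 higher by at least 2-fold, and the median difference was -0.90 (log2) among the lower and 0.74 among the higher ones. Probes lower by at least 2-fold in each of the 4 pairs numbered 39 (0.282% of those tested) and probes higher by at least 2-fold in each pair numbered 5 (0.0362%).

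The count depended on the pairing. Fitted on the day 0 arrays alone, with the pairs, 844 of 11222 probes were higher (7.52%) and 955 lower (8.51%). Without the experiment number in the model, limma called 20 probes (0.145%), 0 higher and 20 lower, with 1712 at an unadjusted p under 0.05, and all 20 were among the 1764. The median standard error per probe was 0.20 with the pairs and 0.31 without them. The arrays of 1 experiment resembled each other: with each group's mean taken off, the correlation across tested probes between an AUF1 and an IgG array was 0.26 to 0.77 for equal numbers and -0.69 to 0.30 for unequal ones. Deviations from a group mean add up to 0, so positive correlations with 1 array bring negative ones with others, and part of this contrast is built in. In experiments 2, 3 and 4 the AUF1 array was closest to the IgG array of its own number, while that of experiment 1 was slightly closer to the IgG array of experiment 4 (0.30) than to its own (0.26).

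The count also moved when array brightness entered the model. When the detected share of each array was added to the paired model, 100 probes were called higher and 68 lower, and 71 and 68 of these were in the sets above. All 1764 probes kept their sign in that fit. The detected share was lower with AUF1 in each day 0 pair, so the fit cannot fully separate brightness from antibody. Median scaling in place of quantile normalization shifted the median difference by -0.36 (log2) and called 20 probes higher and 3320 lower. Relative to that shift all 1764 probes kept their direction, but 333 of the 896 higher probes then stood below 0. The part of brightness in the differences was not tested.

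The probe with the highest difference among those called, detected in both groups and of 1 sign in all pairs was ILMN_2987984. Its normalized level (log2) was 9.27, 9.70, 9.61 and 9.01 with AUF1 in experiments 1 to 4, and 7.63, 8.27, 7.96 and 7.36 with IgG. The groups did not overlap, and the 4 pairs gave nearly the same gap, 1.64, 1.43, 1.65 and 1.65. The difference was 1.59 ± 0.19 (log2, SE; limma adjusted p = 0.000852), or 3.01-fold, and 0.92 under median scaling (limma adjusted p = 0.0440). On the deposited scale the signal was 505.5, 323.6, 829.9 and 546.4 with AUF1 and 457.5, 188.6, 421.5 and 303.0 with IgG, so the probe was the brighter one with AUF1 in each pair before any normalization. The deposited signals were closest in experiment 1, so the nearly equal gaps hold on the normalized scale only. In input RNA, normalized on its own, it was at 6.41 ± 0.60 (log2, SD, n = 5), near the middle of all tested probes (percentile 48.9). In a normalization of all 13 day 0 arrays together, AUF1 was above input by 3.54 and IgG by 1.99 (log2; limma adjusted p = 5.53e-06 and 0.000302).

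ILMN_2785454 was next, with a difference of 1.54 ± 0.35 (SE; limma adjusted p = 0.0120). It stood at 10.47, 11.02, 10.66 and 10.08 with AUF1 and at 8.09, 9.46, 9.97 and 8.53 with IgG. The AUF1 values were close together and the IgG values spread over almost 2 log2 units, so the gap ran from 0.69 in experiment 3 to 2.37 in experiment 1. In the joint normalization it was above input by 2.401 with AUF1 (limma adjusted p = 0.000139) and by 0.85 with IgG, which did not pass (limma adjusted p = 0.0655). Without the pairs the adjusted p of these probes was 0.0760 and 0.242. ILMN_2785454 also lost its call without experiment 1 or 2, with the detected share in the model and under median scaling (limma adjusted p from 0.00336 to 0.246 over 19 alternatives).

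The probe with the lowest difference was ILMN_2730425, at 8.17, 8.76, 7.78 and 6.83 (log2) with AUF1 and 11.20, 11.80, 11.32 and 9.0 with IgG. The difference was -2.17 in experiment 4 and lower still in the other pairs, and the lowest IgG value still lay above the highest AUF1 value. The difference was -2.94 ± 0.34 (SE; limma adjusted p = 0.000742), and -3.74 under median scaling. The deposited signal was 263, 167, 237 and 152 with AUF1 against 4109, 2412, 3807 and 794 with IgG. In input it was at 5.52, 4.74, 6.57 and 5.90 on arrays 33, 36, 39 and 42, but at 9.79 on array 45 of experiment 4.

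ILMN_3128792 showed the same arrangement. With AUF1 it was at 9.02, 9.26, 7.79 and 9.0, and with IgG at 11.79, 11.58, 11.80 and 10.85, without overlap. The fitted difference was -2.74 ± 0.31 (SE), with an adjusted p of 0.000586 from limma, and -3.48 under median scaling. The gap was widest in experiment 3, at -4.01, and narrowest in experiment 4, at -1.85. Its input level was 5.72 to 7.34 on 4 arrays and 9.60 on array 45. Set against input by group means in the joint normalization, both low probes were above input with IgG, by 4.81 and 4.99. With AUF1 they were above it by 1.89 and 2.24, and the value of ILMN_2730425 was not called (limma adjusted p = 0.0840). Experiment 4 went the other way with AUF1. On the deposited scale AUF1 stood there at 151.8 and 543.5, against 648.8 and 568.5 on input array 45, with IgG at 794.1 and 2762.

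**Figure D2:**
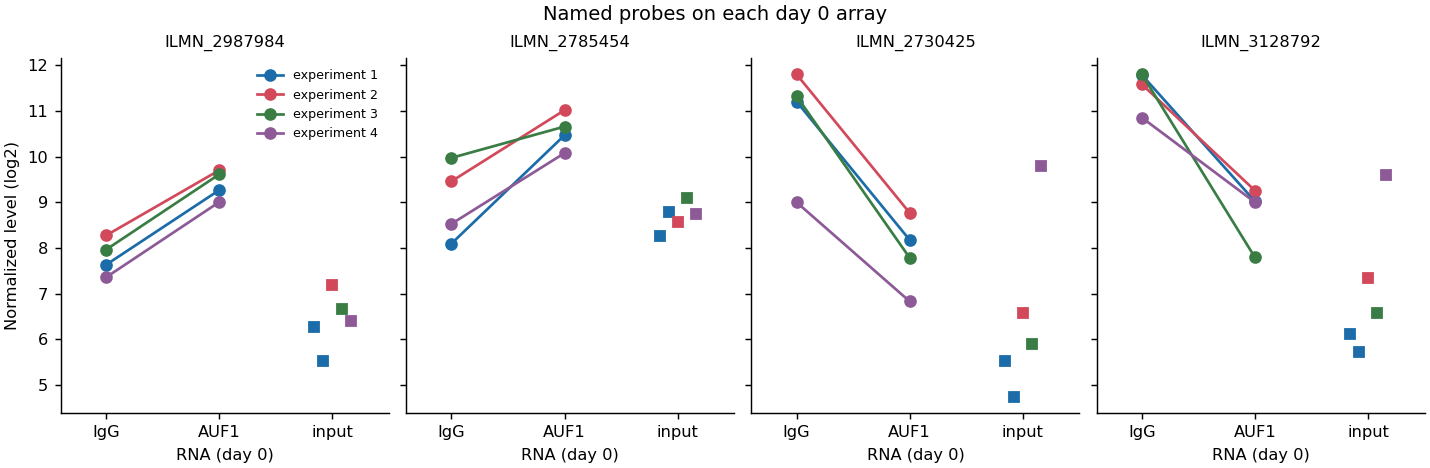
Normalized level (log2) of 4 probes on each day 0 array; lines join the IgG and AUF1 arrays of 1 experiment, squares are input arrays in the colour of their experiment. ILMN_2987984 and ILMN_2785454 rise from IgG to AUF1 in each pair, ILMN_2730425 and ILMN_3128792 fall, and for the last pair of probes the input array of experiment 4 (9.79 and 9.60) lies well above the other 4.

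The size of the gap differed between experiments. Differences of at least 2-fold were found at 857 higher and 1027 lower probes in experiment 1 and at 959 and 1297 in experiment 2, but at 80 and 427 in experiment 3 and 93 and 304 in experiment 4. The 2 arrays of a pair correlated at 0.94 and 0.94 across probes in experiments 1 and 2 and at 0.97 and 0.98 in experiments 3 and 4. No pair shares an array with another, and their differences correlated across probes at 0.33 (experiments 2 and 4) to 0.72 (experiments 1 and 3); probes are not independent replicates. Across all tested probes, 5559 had the same sign in 4 of 4 pairs (40.2%), 2896 of them higher with AUF1 and 2663 lower, and 8253 did not. The 4 AUF1 values lay wholly above the 4 IgG values at 583 probes (4.22%) and wholly below them at 526 (3.81%).

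Each pair was also left out of the fit in turn, and the probes called from the other 3 were read in it. Without experiment 1, 192 probes were called higher and 173 lower, and in that experiment 97.4% and 98.3% of them had the same sign, where 50.1% of all probes were above 0. Without experiment 2 the calls were 293 and 272, with 95.9% and 96.0% of the same sign. Without experiment 3 they were 482 and 381, with 99.6% and 97.1%. Without experiment 4 they were 861 and 881, with 89.9% and 83.9%. The median difference in the pair left out was 1.17 and -1.44 (log2) in experiment 1 but 0.41 and -0.36 in experiment 4. The smallest number of calls came without experiment 1, which held the widest gap in signal. Experiment 2 held the widest spread of differences (SD 0.73, against 0.66 in experiment 1), and no link between gap and calls was tested. Leaving out 1 array takes its pair out of the comparison. The values read in the pair left out were normalized together with all other pulldown arrays. AUF1 was the dimmer array in each pair, so equal signs do not separate brightness from antibody, and the part of brightness was not tested.

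**Figure D3:**
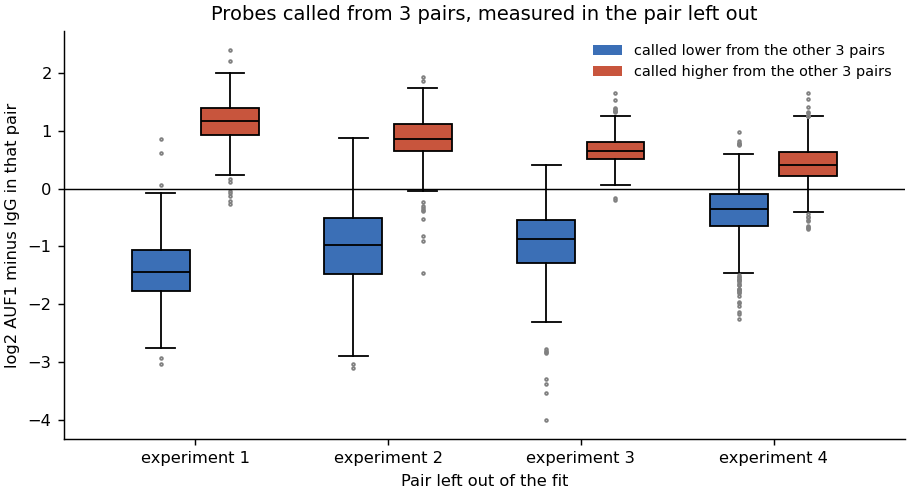
log2 AUF1 minus IgG in 1 pair, for probes called from the other 3 pairs; boxes show the median and quartiles, whiskers reach 1.5 times the box and dots lie beyond. Boxes of called higher probes lie above 0 and boxes of called lower probes below 0 in each experiment, with the medians nearest to 0 in experiment 4 (0.41 and -0.36).

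The differences were then read against the level in input RNA, which shares no array with them. The tested probes were divided into 5 bins of about equal size by their mean input level (log2, 5 arrays). The median difference was near 0 in each bin, from -0.037 in the fourth bin to 0.041 in the lowest, and across the 13812 probes the difference and the input level had r = -0.036. Quantile normalization, which gives every array the same distribution, bears on this balance: under median scaling the medians went from -0.0019 in the lowest bin to -0.61 in the highest. The share of probes called also differed by bin. In the lowest bin (input 4.23 to 4.76) 0.651% were called higher and 1.45% lower. In the next bins 2.75% and 2.64%, 6.77% and 6.66%, and 10.8% and 9.23% were called, and in the highest bin (8.74 to 14.97) 11.4% and 11.4%. Without experiment 1, 2 or 3 the share called in either direction was higher in the fourth bin (4.77%, 8.09% and 11.1%) than in the highest (4.11%, 6.34% and 10.7%). With all pairs, the share also fell at the top with 10 bins, from 24.8% to 20.9% in the last, and among probes detected on all 5 input arrays, from 22.7% to 21.7%. Under median scaling the share called was 39.8% in the fourth of 5 bins and 33.7% in the highest. The rise from the fourth to the highest bin thus depends on the pairs, the binning and the scaling. The median size of the difference, whatever its sign, rose from 0.16 to 0.36 log2 units between the lowest and the highest bin, and the offset of 16 added before the logarithm narrows the differences of dim probes.

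Differences of at least 2-fold were spread otherwise. Of the 110 higher ones, 47 lay in the fourth bin and 14 in the highest, and of the 334 lower ones 109 and 94. In the lowest bin 21 probes were lower by at least 2-fold and 4 higher. Under median scaling 0.0724% of the highest bin were called higher and 33.6% lower.

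**Figure D4:**
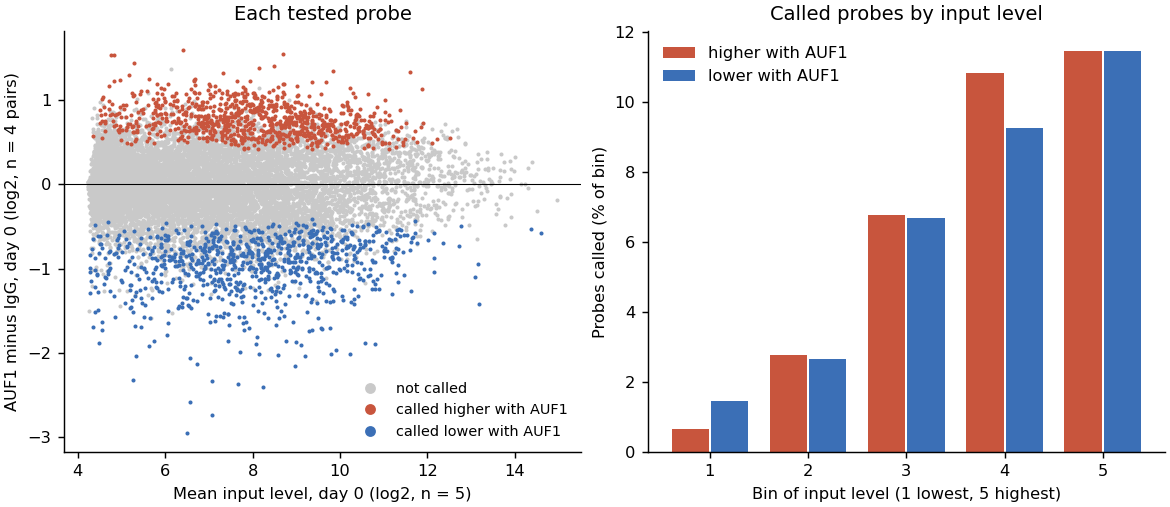
Left, AUF1 minus IgG difference (log2, 4 pairs) against mean day 0 input level (log2, 5 arrays) for each tested probe; right, percentage of probes called higher or lower in 5 bins of input level. Called probes lie on both sides of 0 over most of the range, the higher ones up to an input level of 12.52 and the lower ones up to 14.60, and their share rises from 0.651% and 1.45% in the lowest bin to 11.4% and 11.4% in the highest.

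Most of the called probes were measurable in input. Of the 9881 tested probes detected on all 5 input arrays, 849 were called higher and 801 lower (16.7% called). Of the 1190 detected on 0 of 5, 2 were called higher and 21 lower (1.93%). In the pulldowns, 827 of the 896 higher probes and 551 of the 868 lower ones were detected on all 8 arrays, against 6425 of all 13812 tested. The remaining lower probes included 65 that were not detected on any AUF1 array, so that their fitted difference is no measured fold, against 4 of the higher ones that were not detected on any IgG array. Of all 25697 probes of the array, 60 were detected on all 4 IgG arrays and no AUF1 array, and 8 on all 4 AUF1 arrays and no IgG array. The 60 included 23 that were detected on all 5 input arrays, and the 8 included 0, where 9881 of all 13812 tested probes were. The dimmer AUF1 arrays move with this imbalance, and their part in it was not tested.

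Each pulldown was then set against input RNA, and the side on which a probe lies depends on the scaling. In a quantile normalization of the 13 day 0 arrays without pairs, AUF1 differed from input at 2530 probes above it (19.2% of 13160) and 2748 below (20.9%), together 40.1%. IgG differed at 2196 above (16.7%) and 2310 below (17.6%), together 34.2%. Under median scaling the median difference from input shifted by -0.54 with AUF1 and -0.15 with IgG, and the calls were 352 above and 4225 below with AUF1 and 1014 and 1818 with IgG. The values that follow are relative to the quantile scaling. Both comparisons use the same input arrays, and their values are given side by side. Each set was chosen by AUF1 minus IgG, so the order of AUF1 and IgG against input is fixed within each set. The probes called higher with AUF1 than with IgG had a median of 1.03 (log2) above input with AUF1 and 0.27 with IgG. AUF1 was called above input at 554 of these 896 and below it at 11, and IgG above it at 229 and below at 75. By their means, 572 lay above input in both pulldowns, 230 lay above it with AUF1 and below with IgG, and 94 lay below it in both.

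For the probes called lower with AUF1, the median was -0.26 with AUF1 and 0.61 with IgG. Of the 867 that entered the comparison with input, IgG was called above input at 383 and below at 77, and AUF1 above at 87 and below at 282. By their means, 316 of 868 lay below input with AUF1 and above it with IgG, 321 above it in both pulldowns and 231 below it in both. The 39 probes lower by at least 2-fold in every pair had medians of -0.71 with AUF1 and 1.07 with IgG. The set of lower probes held both RNAs that were below input with AUF1 and RNAs that were above it with IgG. Choosing the set for AUF1 below IgG favours both classes, and no test was made of one share against the other.

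**Figure D5:**
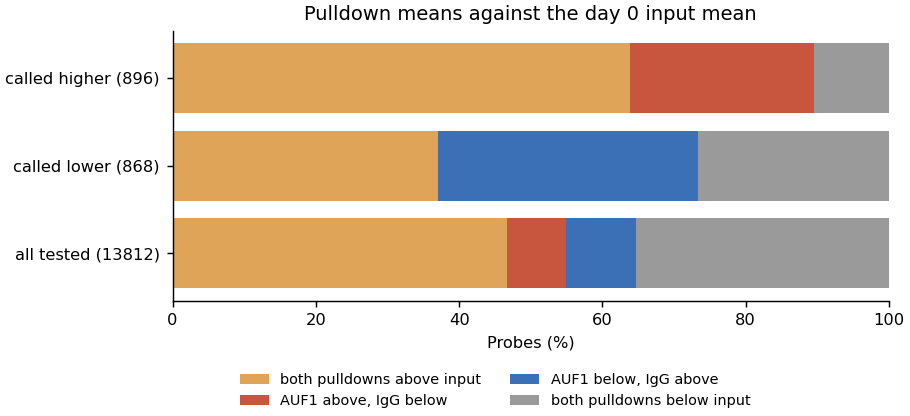
Percentage of probes by the side of the day 0 input mean on which the AUF1 and IgG means lie, for probes called higher, called lower and all tested. AUF1 above with IgG below can occur only in the higher set and the reverse only in the lower set, where these classes hold 25.7% and 36.4%; over all tested probes they hold 8.22% and 9.74%.

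The pulldowns were not equally close to input. In the joint normalization the IgG arrays correlated with the input mean at 0.87, 0.78, 0.86 and 0.94 across probes in experiments 1 to 4, and the AUF1 arrays at 0.88, 0.75, 0.84 and 0.91. Experiment 4 was closest to input and experiment 2 farthest with either antibody. Input array 45, of experiment 4, correlated with the other input arrays at 0.92 to 0.94, where those correlated with each other at 0.96 to 0.99. Without it the share called in the highest bin of input level was 22.6% in place of 22.9%.

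The same probes were read on the differentiation days, which share no pulldown array with day 0 but share its normalization, its spread per probe and its experiment numbers. On day 2, 861 of the 896 higher probes were again above 0 and 862 of the 868 lower ones below it, where 44.8% of all tested probes were above 0. The paired model called 600 and 673 of them there, which is 67% and 77.5% of the day 0 sets and 38% and 33.1% of the day 2 calls (11.4% and 14.7% of all probes, 26.2% together). On day 4 the figures were 871 and 859 by sign, with 45.6% of all probes above 0, and 597 and 650 by call (12.3% and 12.3% of all probes, 24.6% together). On day 6, 654 and 733 kept their sign with medians of 0.11 and -0.29 (log2), where 51.4% of all probes were above 0, and limma called 0 probes, with 742 at an unadjusted p under 0.05. Under 30% of the probes were detected on the day 2 AUF1 arrays of experiments 1 and 2 (29.2% and 24.4%). On day 4 this held for AUF1 in experiment 3 (24.5%) and IgG in experiment 2 (25.6%), and no day 6 array was under that share. The part of brightness in these values was not tested. The change of the difference from day 0 was tested in the same model and called 0 probes for day 2, day 4 and day 6, with 1330, 1058 and 1553 at an unadjusted p under 0.05. On days 2, 4 and 6, ILMN_2987984 differed by 1.87, 1.77 and -0.085, ILMN_2785454 by 2.08, 1.06 and -0.30, ILMN_2730425 by -2.52, -2.47 and -1.22, and ILMN_3128792 by -2.498, -3.03 and -0.64. The day 6 values lay nearest to 0 for each of the 4, and no change from day 0 passed the test (limma adjusted p from 0.133 to 0.919).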

How the data were processed

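For each probe and array the deposited file gives 2 values, per the file headers: an unnormalized signal intensity and a detection p-value. GenomeStudio 1.6.0 is named in the submitters' processing notes; any background subtraction there is not stated. Per the labels' protocols, RNA was amplified from its poly(A) end. Intensities of the 29 pulldown arrays were background-corrected from the detection p-values, offset by 16, quantile normalized and taken to log2 (neqc, limma 3.58.1, R 4.3.3). Probes detected on at least 3 arrays were tested. The model had a mean per group and the experiment number within day as a block, with 1 spread per probe over all days and 10 residual degrees of freedom. The median SD of the paired differences was 0.32 on day 0 and 0.30 to 0.41 on the other days. The 5 day 0 input arrays were normalized on their own for the bins, and with the 8 pulldown arrays for the comparison with input.

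The pairing follows the E number of the column names; it is not the replicate number of the titles, so columns were assigned to groups only. Same-numbered arrays correlated at 0.26 to 0.77 with group means taken off. The AUF1 array was closest to its own partner in 3 of 4 experiments. The design, the pairing and the alternatives were chosen with earlier results of these data known, the number of calls with and without the block among them. Named probes are the 2 highest and 2 lowest of those called, detected on at least 1 array of each group and of the same sign in 4 pairs; planned gene lists and cell type markers could not be used without gene names. The fit was tested on simulated data with normal noise, drawn for each probe on its own and without a brightness difference between the antibodies. That test has no bearing on array brightness or on scaling. The number of arrays limits the precision.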

Additional observations from a re-analysis of the deposited data

Results flagged for a closer look

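ILMN_2987984 in experiment 2 stood apart from the other pairs, with an AUF1 minus IgG difference of 1.43 (log2) against 1.64 to 1.65 in experiments 1, 3 and 4. It was the only 1 of 24 groups of 4 or 5 values examined in which the gap to the nearest value passed Dixon's 95% limit, and chance alone marks about 1 group in 20. Both arrays of experiment 2 had the lowest detected shares of their groups.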

How the results depend on the processing

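Of the 19 alternatives to the paired comparison, 10 moved a count of calls by over 1.5 times. Without the replicate block limma called 0 probes higher and 20 lower, and in the day 0 arrays alone without it 0 and 0, with 1442 at an unadjusted p under 0.05. With the experiment number across days as the block the counts were 342 and 366, under median scaling 20 and 3320, with array weights 2182 and 2098 and with the detected share as a covariate 100 and 68. Leaving out 1 pair gave 192 to 861 higher and 173 to 881 lower. Scaling to the same mean and SD gave 887 and 1517. The day 0 arrays alone with the replicate block gave 844 and 955 (7.52% and 8.51%), of which 689 and 713 were in the main sets, and leaving out the day 4 arrays, an addition made after the data were examined, gave 885 and 892.

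The median difference in the lowest bin of input level was -0.0019 under median scaling and 0.0038 among probes detected on all 5 input arrays, and in the highest bin -0.61 under median scaling. The percentage called in the lowest bin was 3.37% under median scaling and 6.93% among probes detected on all 5 input arrays, and 0.146% to 2.75% without 1 pair; in the highest bin it was 4.11% to 22.8% without 1 pair. Against input, median scaling gave 352 probes above and 4225 below with AUF1 and 1014 above with IgG. The cause of these changes was not tested.

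No named probe changed sign. ILMN_2987984 lost its call in 2 of 19 alternatives, ILMN_2785454 in 6, and ILMN_2730425 and ILMN_3128792 in 1 each.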
